A study of Mus musculus with 24 samples.

Results

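Transcripts of the respiratory chain, the 5 inner-membrane complexes that carry out oxidative phosphorylation, were followed in mouse jejunal crypts after loss of Nle1, of Apc or of both. Rows of the deposited table of estimated counts were taken by gene symbol (names beginning Nduf, Uqcr, Cox with a digit or Atp5, the 4 Sdh subunit genes, and the mitochondrial Nd, Co, Cytb and Atp genes) where the mean was at least 10 estimated counts over the 24 libraries. Of 37620 rows, 112 matched by symbol and 104 reached that mean, 91 from the nuclear genome and 13 from the mitochondrial genome. The 8 left out were Ndufa4l2, Atp5l2, Cox8c, Cox4i2, Cox7b2, Atp5l-ps1, Cox6a2 and Cox8b, with means of 0 to 6.21 estimated counts. The 4 groups, each sampled on day 1 and day 2 (24 h and 48 h after induction) with 3 mice per genotype and day, were ApccKO;NlecKO, with conditional loss of both genes (called the double knockout below), ApccKO, NlecKO and Control. Every mouse, Control mice included, was 5 to 10 weeks old and had received tamoxifen at 56 mg/kg into the abdominal cavity on 3 consecutive days. Crypts were isolated from 5 to 10 cm of jejunum, polyadenylated RNA was sequenced, and each library came from a separate mouse. Nle1 encodes Notchless, a factor in the maturation of the large ribosomal subunit, and Apc restrains Wnt signalling. The Cre line that deleted the genes is not given in the sources used here.

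The respiratory chain passes electrons from NADH (complex I) and succinate (complex II) through complexes III and IV to oxygen, and ATP synthase (complex V) uses the resulting proton gradient. Its subunits come from both genomes: the mitochondrial genome encodes core subunits of complexes I, III, IV and V, while complex II and the remaining subunits are encoded in the nucleus and imported. In the intestine, mitochondrial activity differs between stem, Paneth and absorptive cells, and absorptive enterocytes are rich in mitochondria.

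Library totals were 17.86 to 26.47 M estimated counts. The summed crypt epithelial markers (Epcam, Cdh1, Krt8, Lgr5, Olfm4 and Ascl2) were detected in every library, with Epcam at 771 to 1312 CPM (reads scaled to a common library size). Smooth and striated muscle markers summed to 8.94 to 27.1 CPM, and Myh11, Des, Actg2 and Ckm were at 0 in 5, 3, 10 and 5 libraries. The Nle1 transcript ranged from 4.84 to 39.8 CPM. The Apc transcript was at 112 to 158 CPM in all libraries and so does not show the deletion. The libraries that stand apart number 3, all from day 1: replicates 2 and 3 of ApccKO and replicate 3 of the double knockout. In them Gm8730 and Gm9625 lay at 0.297 to 0.716 CPM, against 29.4 to 115 CPM in the other 21. For ApccKO against Control and the double knockout against ApccKO on day 1, the total counts of members called are given with and without them. Other day 1 values include these libraries unless stated otherwise. Without them the ApccKO day 1 group is 1 library, assumed to vary like the other groups. The code numbers of the Apc-lost libraries form 1 run between runs of Apc-intact libraries, so a batch of that run and Apc loss cannot be told apart. All day 1 libraries also come before all day 2 libraries in code number, so a batch by that order and day cannot be told apart.

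The 13 mitochondrially encoded transcripts took 5.36 to 9.51% of a library's estimated counts (median 6.88%), and the 91 nuclear ones 1.43 to 2.18% (median 1.90%). Per length, in the deposited TPM values averaged over the 24 libraries, the mitochondrially encoded genes had a median level of 8382 TPM and ran from mt-Nd5 at 2727 TPM to mt-Co2 at 26267 TPM. The nuclear genes had a median level of 286 TPM, from Atp5s at 6.33 TPM to Cox6a1 at 2394 TPM. By complex, the median level of the nuclear core subunits was 225 TPM for the 36 of complex I, 298 TPM for the 4 of complex II, 612 TPM for the 8 of complex III, 990 TPM for the 11 of complex IV and 643 TPM for the 15 of complex V. The other 17 nuclear members were 12 assembly factors, the tissue-restricted isoforms Cox6b2 and Cox7a1, and Atp5s, Atp5sl and Cox4nb. Cox4nb carries an old symbol for a subunit of an endoplasmic reticulum membrane complex and is not a respiratory chain gene. The coefficient of variation of CPM within a group was taken per gene as the median of the 8 groups. It had a median of 6.98% over the nuclear and 9.82% over the mitochondrially encoded members. Over all genes tested, many of them at lower levels, it was 12.6%. Single groups varied more, as in NlecKO crypts on day 1, where the mitochondrially encoded members summed to 105444, 67551 and 78195 CPM. By this coefficient Atp5g2 varied least among nuclear members (2.94%) and Cox7a1 most (42.8%).

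Promoters are shown for the 5 nuclear members on which the results below turn: both tissue-restricted isoforms, whose changes were the largest in size, Sdhb and Ndufb10, which fell most in their complexes after Apc loss on day 2, and Atp5g2, the ATP synthase core gene not called after Apc loss. Each line gives the 250 bases before the RefSeq gene start in GRCm38.p6, read 5' to 3' on the gene's strand. Their positions are chr7:4753095-4753344 on the minus strand for Cox6b2, chr7:30183921-30184170 on the plus strand for Cox7a1, chr4:140961021-140961270 on the plus strand for Sdhb, chr17:24724424-24724673 on the minus strand for Ndufb10 and chr15:102671048-102671297 on the minus strand for Atp5g2. Capitals mark matches to the core of the NRF1 motif on either strand, NRF1 being a factor known for binding promoters of respiratory chain genes.
Cox6b2: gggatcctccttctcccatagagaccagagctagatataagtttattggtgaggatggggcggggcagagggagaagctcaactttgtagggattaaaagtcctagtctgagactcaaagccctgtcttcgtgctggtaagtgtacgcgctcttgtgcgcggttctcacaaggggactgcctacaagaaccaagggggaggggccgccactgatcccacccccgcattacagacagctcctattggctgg
Cox7a1: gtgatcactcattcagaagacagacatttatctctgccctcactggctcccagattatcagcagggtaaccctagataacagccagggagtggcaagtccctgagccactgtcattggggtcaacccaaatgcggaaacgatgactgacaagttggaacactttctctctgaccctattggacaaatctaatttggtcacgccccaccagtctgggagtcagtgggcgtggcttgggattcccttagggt
Sdhb: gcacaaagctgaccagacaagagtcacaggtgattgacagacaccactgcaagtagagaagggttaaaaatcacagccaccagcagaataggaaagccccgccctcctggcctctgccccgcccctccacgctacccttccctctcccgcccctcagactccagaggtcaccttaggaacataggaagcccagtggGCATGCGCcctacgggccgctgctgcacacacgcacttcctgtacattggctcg
Ndufb10: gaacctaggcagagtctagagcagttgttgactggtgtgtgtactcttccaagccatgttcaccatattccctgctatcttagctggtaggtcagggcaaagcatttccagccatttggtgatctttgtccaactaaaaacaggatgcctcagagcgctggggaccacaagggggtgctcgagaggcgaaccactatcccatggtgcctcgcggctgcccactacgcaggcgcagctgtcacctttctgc
Atp5g2: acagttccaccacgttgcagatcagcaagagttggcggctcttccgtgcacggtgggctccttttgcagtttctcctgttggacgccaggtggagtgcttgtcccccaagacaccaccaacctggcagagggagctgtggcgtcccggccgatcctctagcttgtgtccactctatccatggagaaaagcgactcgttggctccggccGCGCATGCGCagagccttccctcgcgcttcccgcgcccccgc
The NRF1 core searched was GCATGCGC. It lay at -54 from the gene start in Sdhb and at -42 and -40 in Atp5g2, as overlapping matches on the 2 strands, and was not found in the other 3 sequences. Of the 91 nuclear members, 74 had a promoter window of 250 bases before to 50 after the start. The NRF1 core was in 11 of these (14.9%), against 2.8% of the 27025 windows of all genes. The core of ETS-family motifs, CCGGAAG, was in 19 (25.7%, against 9.12% of all), and the YY1 core, ATGGCGG, in 10 (13.5%, against 4.19%). All were searched on both strands.

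Nearly the whole chain, in both genomes, was lower in ApccKO than in Control crypts. A batch of the Apc-lost run of libraries and Apc loss cannot be told apart here. The nuclear members summed to 13150, 14248 and 12996 CPM in ApccKO crypts on day 2, against 23930, 19331 and 22522 CPM in Control crypts. The mitochondrially encoded members summed to 60707, 47866 and 58573 CPM in ApccKO crypts, against 92133, 75770 and 89142 CPM in Control crypts. Neither sum overlapped between the groups, and ApccKO stood at 61.4% of the Control mean for the nuclear and 65.0% for the mitochondrially encoded genes. On day 1 ApccKO stood at 73.0% and 78.8% of the Control mean, again without overlap. As an unscaled share of a library's estimated counts, the nuclear members averaged 1.69% in ApccKO and 2.11% in Control crypts on day 1, without overlap. The mitochondrially encoded members averaged 6.55% and 7.56% that day, with overlap. On day 2 these shares were 1.5% and 2.11% (nuclear) and 6.21% and 8.26% (mitochondrially encoded), both without overlap.

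Gene by gene on day 2, 82 of 91 nuclear members and 13 of 13 mitochondrially encoded members were lower in ApccKO crypts than in Control crypts (edgeR quasi-likelihood test, Benjamini-Hochberg adjusted p under 0.05), against 29.4% of all 16552 genes tested. The median log2 change was -0.68 over the nuclear and -0.62 over the mitochondrially encoded members, against 0.02 over all genes. In 78 of the 91 nuclear members (85.7%) and 12 of the 13 mitochondrially encoded members every ApccKO library lay below every Control library, which held for 31.1% of all genes. The same held on day 1 for 80 nuclear and 11 mitochondrially encoded members, against 29.0% of all genes. On day 1, when 25% of all genes were called lower, 79 nuclear members (median log2 change of the 91, -0.47) and 8 of 13 mitochondrially encoded members (median of the 13, -0.36) were lower. Without the 3 libraries that stand apart, 65 nuclear and 0 mitochondrially encoded members were called lower on day 1. The day 1 mitochondrial count also fell to between 0 and 3 when any of 5 libraries was left out singly (Control replicates 1 and 2, ApccKO replicates 1, 2 and 3), and its medians ran the same way as on day 2.

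**Figure D1:**
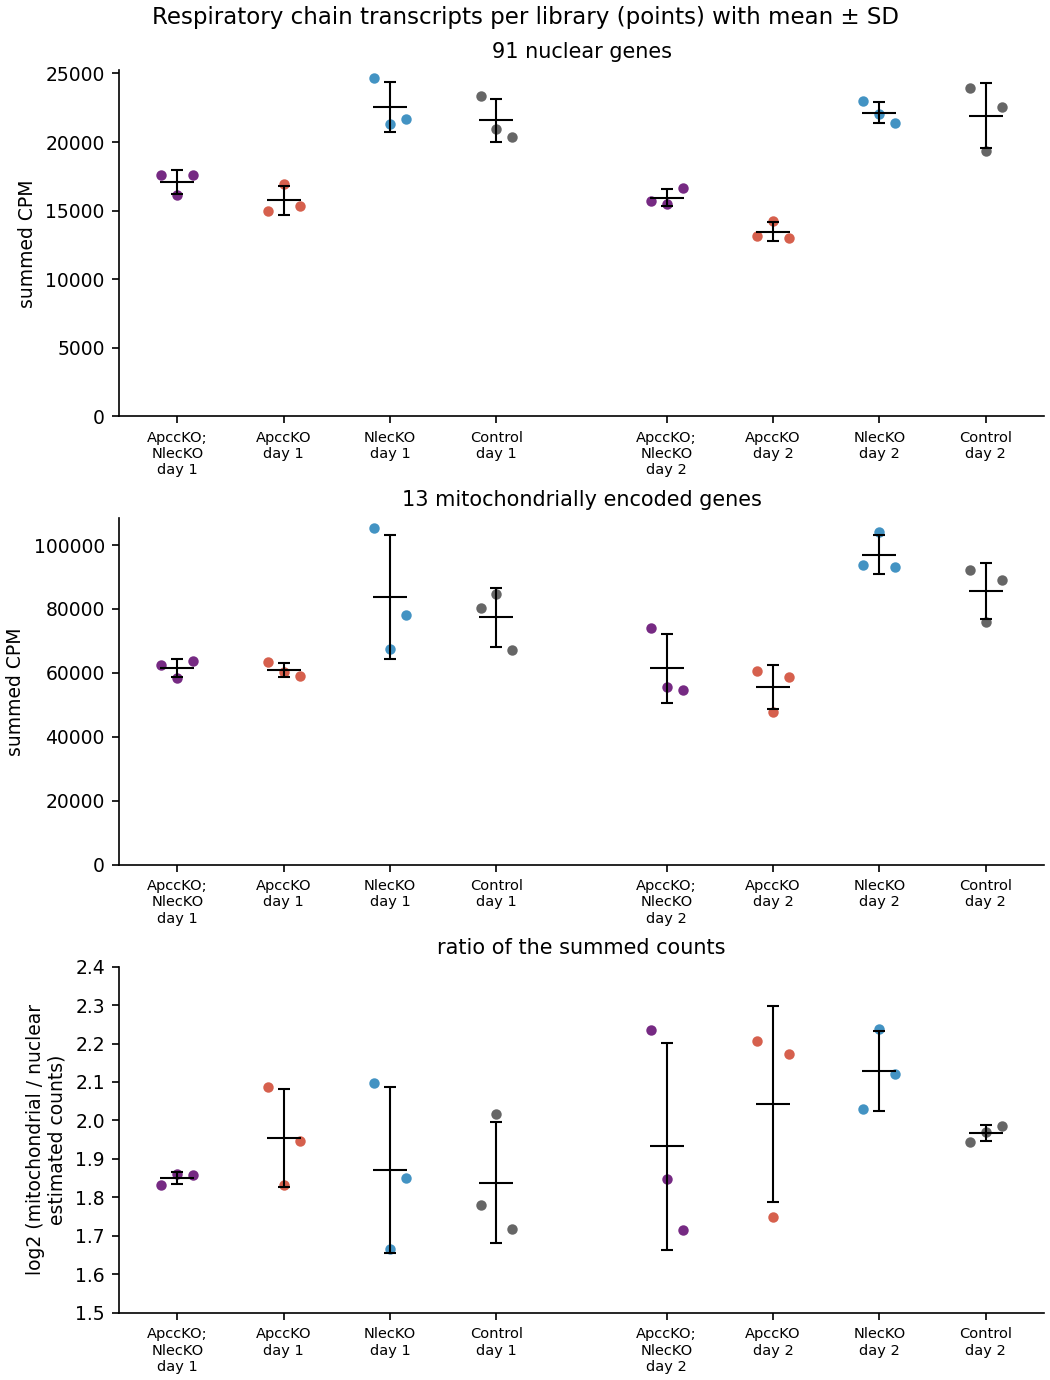
Summed CPM of the 91 nuclear genes and of the 13 mitochondrially encoded genes, and the log2 ratio of their summed estimated counts, in each of the 24 libraries (points) with mean and SD of 3 mice per group. Both sums were lower in ApccKO than in Control crypts on each day without overlap, while the ratio (axis not from 0) overlapped. As an unscaled share of estimated counts, the mitochondrially encoded genes overlapped on day 1.

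Complex II, which is wholly nuclear and oxidises succinate, had the lowest median on day 2. All 4 of its subunit genes fell in ApccKO crypts on both days (median log2 change -0.54 on day 1 and -0.99 on day 2). Sdhb, the iron-sulfur subunit whose promoter is shown above, had 122, 131 and 113 CPM in ApccKO crypts on day 2, against 363, 263 and 341 CPM in Control crypts. No ApccKO library came near the lowest Control library. Its log2 change was -1.40 ± 0.12 (SE, n = 3 each, adjusted p = 2.2e-08), and that of Sdhc, a membrane anchor, was -1.05 ± 0.09 (adjusted p = 1.5e-08).

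Complex I, the NADH dehydrogenase, fell in 33 of its 36 nuclear core genes on day 1 and in all 36 on day 2 (median log2 change -0.66 on day 2). The 3 not called on day 1 were Ndufa7, Ndufb4 and Ndufa12. Ndufb10, an accessory subunit, had 52.5, 55.6 and 54.0 CPM in ApccKO crypts on day 2, against 149, 121 and 136 CPM in Control crypts. The ApccKO libraries lay close together and well below Control, with a log2 change of -1.32 ± 0.08 (adjusted p = 3e-10). Ndufv3, a subunit of the NADH-binding module, changed by -1.30 ± 0.09 (adjusted p = 1.2e-09), and Ndufa7 changed least among them, by -0.20 (adjusted p = 0.03).

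Complex III, which passes electrons to cytochrome c, fell in 8 of 8 nuclear genes on both days, with a median of -0.85 on day 2. Its Rieske iron-sulfur protein gene Uqcrfs1 changed by -1.05 ± 0.13 (adjusted p = 8.9e-07), the core protein genes Uqcrc1 and Uqcrc2 by -0.92 ± 0.10 and -0.94 ± 0.09, and the small subunit gene Uqcr10 by -0.30. Complex IV, cytochrome c oxidase, fell in 11 of 11 core genes on both days (median -0.67 on day 2). Of these, Cox5a changed by -0.82 ± 0.10 (adjusted p = 8.7e-07), Cox5b by -0.74 ± 0.08 (adjusted p = 1.6e-07) and Cox7c by -0.37.

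ATP synthase fell in 14 of 15 nuclear core genes on both days, with a median of -0.76 on day 2. The exception was 1 of the 3 genes for subunit c, the proton-carrying ring, which encode the same mature protein. Atp5g1 had 171, 178 and 156 CPM in ApccKO crypts on day 2, against 311, 283 and 292 CPM in Control crypts (log2 change -0.81 ± 0.06, adjusted p = 5.3e-09). Atp5g3 had 385, 412 and 371 CPM in ApccKO crypts, against 798, 600 and 751 CPM in Control crypts (-0.88 ± 0.12, adjusted p = 3.2e-06). Neither gene's groups overlapped. Atp5g2 had 244, 262 and 236 CPM in ApccKO crypts, against 269, 274 and 260 CPM in Control crypts. Its groups overlapped, and its log2 change of -0.11 ± 0.07 did not pass the test (adjusted p = 0.14). In the 3 genes' summed TPM, the share of Atp5g2 was 32.2 to 32.9% in ApccKO libraries, against 20.9 to 25.1% in Control libraries on day 2. Of the 31-base words of Atp5g2 transcripts, 40.2% also occur in other genes, mostly Gm10175, so its level is uncertain.

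**Figure D2:**
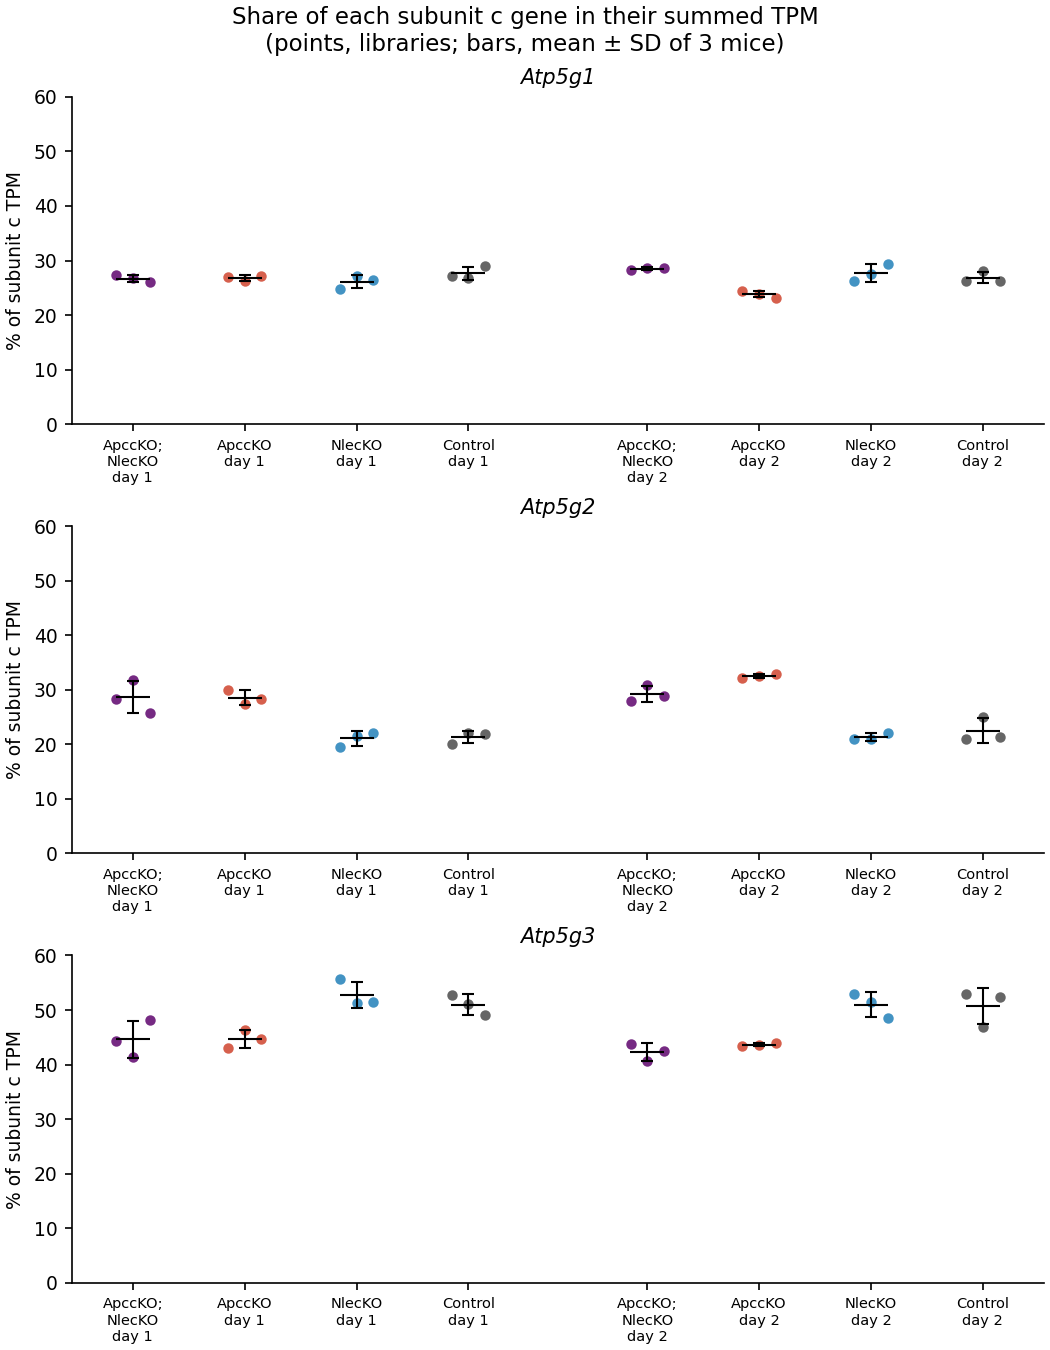
Share of Atp5g1, Atp5g2 and Atp5g3 in the summed TPM of the 3 subunit c genes (percent) in each library (points), with mean and SD of 3 mice. The Atp5g2 share is 28.6% and 32.6% in ApccKO crypts on days 1 and 2, against 21.4% and 22.4% in Control crypts.

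**Figure D3:**
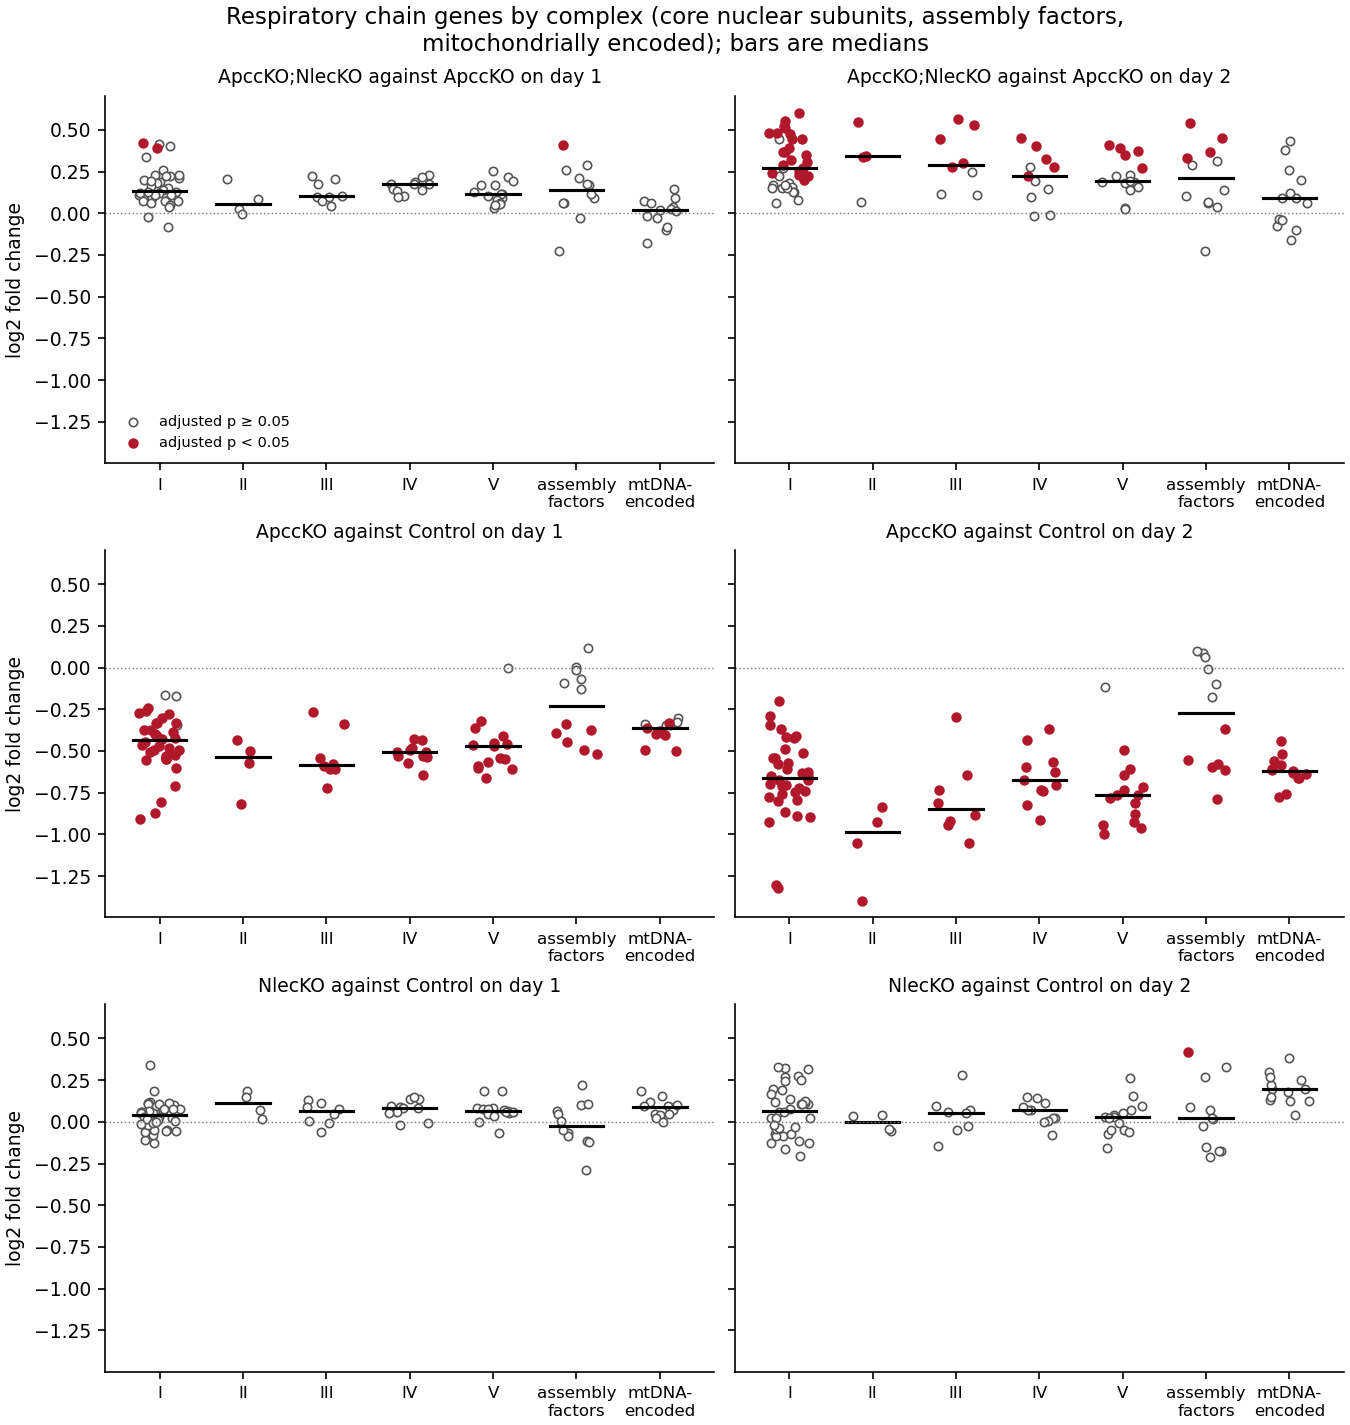
Log2 fold change of each core nuclear subunit gene, assembly factor and mitochondrially encoded gene (points) by complex in 6 comparisons. Filled points passed an adjusted p of 0.05 and bars are medians, which lie below 0 in every class of ApccKO against Control and above 0 in every class of the double knockout against ApccKO.

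Assembly factors, which build the complexes without staying in them, moved less uniformly. Of the 12, 6 were lower in ApccKO than in Control crypts on both days (Ndufaf3, Cox10, Cox11, Cox15, Cox16 and Cox19), with log2 changes of -0.79 to -0.37 on day 2. The other 6 passed the test on neither day (Ndufaf1, Ndufaf2, Ndufaf4, Cox17, Cox18 and Cox7a2l) and ran from -0.18 to 0.10 on day 2.

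Cox7a1, an isoform of a complex IV subunit known from heart and skeletal muscle, showed the lowest log2 change of all members. It had 5.03, 11.5 and 4.05 CPM in ApccKO crypts on day 2, against 74.9, 29.8 and 64.6 CPM in Control crypts. The groups were far apart although Control replicate 2 was low, and the log2 change was -3.03 ± 0.55 (adjusted p = 0.00016), after -2.31 ± 0.53 on day 1 (adjusted p = 0.0018). In the same libraries the summed enterocyte markers, described below, were at 2740, 4703 and 2795 CPM in ApccKO crypts. In Control crypts they were at 36390, 10439 and 30338 CPM. The part of enterocytes in the change of Cox7a1 was not tested. In the summed TPM of Cox7a1 and the widely expressed Cox7a2, the share of Cox7a1 was 21.3 ± 8.23% in ApccKO crypts on day 2 and 58.4 ± 8.59% in Control crypts (SD, n = 3 each).

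In ApccKO against Control 1 nuclear member was called higher on day 2 (29.2% of all genes were) and 2 on day 1 (24.7% of all genes), Cox4nb on both days and Cox6b2 on day 1. Cox4nb had 61.9, 59.6 and 63.6 CPM in ApccKO crypts on day 2, against 47.0, 51.7 and 45.5 CPM in Control crypts (log2 change 0.36 ± 0.10, adjusted p = 0.0057). The groups did not overlap. Cox4nb lies on the opposite strand to Cox4i1 with overlapping exons, and whether the counts use strand is not given in the sources used here.

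All 13 mitochondrially encoded genes were close to each other in size of change on day 2, from -0.78 to -0.44. Among the 7 complex I subunit genes, mt-Nd4 had 4514, 3388 and 4459 CPM in ApccKO crypts, against 7618, 6342 and 7204 CPM in Control crypts. The groups did not overlap, and the log2 change was -0.78 ± 0.15 (adjusted p = 0.00022). mt-Nd6, which is encoded on the other strand of the mitochondrial genome from the remaining 12, changed by -0.66 ± 0.17 (adjusted p = 0.0023). The other 5 changed by -0.66 (mt-Nd2), -0.64 (mt-Nd5), -0.62 (mt-Nd4l), -0.52 (mt-Nd3) and -0.44 (mt-Nd1), the last being the smallest change. Cytochrome b (mt-Cytb, complex III) changed by -0.76 ± 0.15. Of the complex IV genes, mt-Co1, the catalytic subunit, had 18474, 14296 and 17990 CPM in ApccKO crypts, against 27755, 21379 and 28265 CPM in Control crypts (-0.61 ± 0.16, adjusted p = 0.0029). mt-Co3 and mt-Co2 changed by -0.58 and -0.56. For ATP synthase, mt-Atp6 changed by -0.62 (adjusted p = 0.0011), while mt-Atp8, with 267, 129 and 206 CPM in ApccKO crypts against 343, 368 and 223 CPM in Control crypts, overlapped and passed narrowly (-0.63 ± 0.27, adjusted p = 0.049). On day 1 the genes called were mt-Nd1, mt-Nd2, mt-Nd3, mt-Nd4l, mt-Nd5, mt-Nd6, mt-Co3 and mt-Atp6. The adjusted p of the other 5 ran from 0.058 (mt-Cytb) to 0.29 (mt-Atp8).

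Mitochondrially encoded transcripts are harder to assign than nuclear ones. A median of 62.8% of their 31-base words also occur in other annotated genes, against 5.1% for the nuclear members. For 14 nuclear members the share was over 20%, so their levels are less certain. Among these were Cox16 (55.2%), Cox11 (47.9%), Uqcrb (34.8%) and Ndufb6 (34.4%), which are named as called in this report. For mt-Co2, mt-Co3, mt-Atp6, mt-Nd4l and mt-Nd3 the share was 98.1 to 100%. mt-Nd4l and the gene Gm10222 held the same estimated count in all 24 libraries. For mt-Nd1, mt-Nd6, mt-Cytb and mt-Atp8 it was 0 to 7.5%.

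Other cell types' markers moved in the same direction after Apc loss. All 15 enterocyte markers (brush-border enzymes and lipid-handling proteins such as Alpi, Sis and Apoa4) were lower on day 2 and 10 on day 1. Of all genes 29.4% were lower on day 2 and 25% on day 1. Summed, the enterocyte markers were at 2740 to 4703 CPM in ApccKO crypts on day 2, against 10439 to 36390 CPM in Control crypts. Goblet cell markers were lower for 6 of 6 and immune cell markers for 9 of 10 on both days. On day 2 crypt epithelial markers were higher for 3 of 6 and Paneth cell markers for 1, against 29.2% of all genes. The part of these cell types in the change of the respiratory chain genes was not tested. Fewer cells of a type and less RNA per cell cannot be told apart in bulk crypts.

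In Apc-lost crypts on day 2, loss of Nle1 came with higher levels of many nuclear members, and no mitochondrially encoded member passed the test. On day 2 the nuclear members summed to 15715, 15476 and 16657 CPM in double knockout crypts, against 13150, 14248 and 12996 CPM in ApccKO crypts. These did not overlap, and the double knockout mean was 118% of the ApccKO mean. As an unscaled share of estimated counts, the nuclear members averaged 1.63% in double knockout and 1.5% in ApccKO crypts, also without overlap. The mitochondrially encoded members summed to 73953, 55720 and 54719 CPM in double knockout crypts, against 60707, 47866 and 58573 CPM in ApccKO crypts, and overlapped. By gene, 45 of 91 nuclear members were higher in the double knockout on day 2, against 19.5% of all genes, and 2 were lower (Cox4nb and Atp5sl), against 15.4% of all genes. In 59 of the 91 every double knockout library lay above every ApccKO library, against 29.9% of all genes. The log2 change was above 0 in 86 of the 91, with a median of 0.27 (0.06 over all genes). No mitochondrially encoded member passed the edgeR test (unadjusted, 2 had a p under 0.05, and DESeq2 called 1), and their median was 0.09. The SE of a log2 change had a median of 0.14 over the mitochondrially encoded members and 0.10 over the nuclear ones, so a change of a given size passed less readily for the 13. The ratio of the summed mitochondrially encoded to nuclear counts overlapped between the groups, with a mean log2 of 1.93 ± 0.27 in the double knockout and 2.04 ± 0.26 in ApccKO (SD, n = 3 each). The nuclear count was 29 without double knockout replicate 3 and 30 without ApccKO replicate 1.

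Genes called higher lay in all 5 complexes. They were 22 of 36 nuclear core genes of complex I, 3 of 4 of complex II and 5 of 8 of complex III. Of complex IV they were 5 of 11 and of ATP synthase 5 of 15, beside 19.5% of all genes. The summed core genes of complex IV overlapped, at 2889 to 3198 CPM in double knockout and 2458 to 2926 CPM in ApccKO crypts. Those of the other complexes did not. Sdhb had 181, 172 and 182 CPM in double knockout crypts, against 122, 131 and 113 CPM in ApccKO crypts. The groups did not overlap, its log2 change was 0.54 ± 0.12 (adjusted p = 0.0018), and every double knockout library still lay below the lowest Control library (263 CPM). Ndufb10 had 74.5, 72.4 and 79.7 CPM in double knockout crypts, against 52.5, 55.6 and 54.0 CPM in ApccKO crypts (0.48 ± 0.08, adjusted p = 0.00014). Other complex I genes called were Ndufab1, the mitochondrial acyl carrier protein (0.37 ± 0.06, adjusted p = 0.0001), and Ndufa11, a membrane-arm subunit (0.48 ± 0.08, adjusted p = 0.00018). In complex III, Uqcrb had 127, 129 and 131 CPM in double knockout crypts, against 84.4, 93.9 and 82.6 CPM in ApccKO crypts (0.57 ± 0.11, adjusted p = 0.00037), without overlap. Uqcrc1 and Uqcrc2 changed by 0.53 ± 0.10 and 0.44 ± 0.09. In complex IV, Cox5a changed by 0.45 ± 0.10 (adjusted p = 0.0014). In ATP synthase, Atp5g1 had 219, 220 and 234 CPM in double knockout crypts, against 171, 178 and 156 CPM in ApccKO crypts (0.41 ± 0.06, adjusted p = 5.8e-05). The other subunit c genes did not pass, with Atp5g3 at 0.14 and Atp5g2 at 0.03. Of the assembly factors, Ndufaf4, which acts on complex I, changed by 0.54 and Cox10, which makes the heme of complex IV, by 0.45 ± 0.10. Cox16 and Cox19 were also called, at 0.37 and 0.33.

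Among the mitochondrially encoded genes, mt-Nd6 and mt-Nd5 were the 2 whose libraries did not overlap between the double knockout and ApccKO on day 2. mt-Nd6 had 741, 581 and 565 CPM in double knockout crypts, against 525, 382 and 490 CPM in ApccKO crypts (0.43 ± 0.17, adjusted p = 0.051). mt-Nd5 had 3931, 3111 and 2921 CPM in double knockout crypts, against 2909, 2080 and 2664 CPM in ApccKO crypts (0.38 ± 0.16, adjusted p = 0.07). The 2 genes are neighbours on opposite strands with 14 overlapping bases. The other 11 ran from -0.16 (mt-Cytb) to 0.26 (mt-Co1), and 8 of the 13 were above 0.

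Some cell type markers moved with this comparison too. On day 2, 6 of 6 goblet cell, 5 of 10 immune cell, 3 of 15 enterocyte and 4 of 6 stromal and endothelial markers tested were higher in the double knockout than in ApccKO. Of all genes 19.5% were higher, and the enterocyte count was near that share. The enterocyte sum was 4734 to 8531 CPM in double knockout crypts, against 2740 to 4703 CPM in ApccKO crypts. Among crypt epithelial markers, Lgr5 had 41.7, 38.0 and 28.6 CPM in double knockout crypts, against 258, 159 and 230 CPM in ApccKO crypts. Olfm4 had 470, 391 and 267 CPM, against 1976, 1867 and 2082 CPM. Both were lower without overlap, as were Epcam and Ascl2, while Krt8 was higher without overlap and Cdh1 overlapped. The Paneth cell marker sums overlapped. Lum and Cdh5 were at 0 in 13 and 6 of the 24 libraries, and the stromal and endothelial markers summed to at most 60.6 CPM in any library. Their part in the result was not tested.

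On day 1, 4 nuclear members were higher in double knockout than in ApccKO crypts, against 5.87% of all genes: Cox6b2, Cox7a2l, Ndufa6 and Ndufb6. Cox7a2l, which takes part in joining complexes into supercomplexes, had 148, 145 and 128 CPM in double knockout crypts, against 104, 119 and 93.2 CPM in ApccKO crypts (0.41 ± 0.09, adjusted p = 0.0071), without overlap. The complex I subunit genes Ndufa6 and Ndufb6 changed by 0.42 ± 0.12 (adjusted p = 0.025) and 0.39 ± 0.12 (adjusted p = 0.035). None of the mitochondrially encoded members passed by edgeR (unadjusted, 0 had a p under 0.05, and DESeq2 called 0). Without the 3 libraries that stand apart, 0 of these 4 nuclear genes kept an adjusted p under 0.05, with log2 changes still positive. Left out singly, ApccKO replicate 3 lowered the count to 1, and ApccKO replicate 1 and double knockout replicates 1 and 3 each lowered it to 2.

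Cox6b2, an isoform of a complex IV subunit known from testis, rose after Nle1 loss in both Apc states. In Apc-lost crypts on day 2 it had 32.5, 28.1 and 27.3 CPM in double knockout crypts, against 3.69, 3.65 and 2.74 CPM in ApccKO crypts. Every double knockout library was far above every ApccKO library, and the log2 change was 3.12 ± 0.28 (adjusted p = 1.7e-07). With Apc intact on day 2 it had 6.50, 12.7 and 16.7 CPM in NlecKO crypts, against 3.08, 2.08 and 2.62 CPM in Control crypts (2.23 ± 0.28, adjusted p = 4e-05). NlecKO replicate 1 was the lowest of its group and still above Control. On day 1 it had 22.7, 33.2 and 27.1 CPM in double knockout crypts, against 8.40, 5.97 and 6.43 CPM in ApccKO crypts (1.99 ± 0.26, adjusted p = 9.8e-05), without overlap. That call was lost without the 3 libraries that stand apart (log2 change 1.73, adjusted p = 0.13). Also on day 1 it had 6.32, 8.33 and 9.78 CPM in NlecKO crypts, against 3.12, 5.20 and 4.23 CPM in Control crypts, without overlap (0.96 ± 0.27, adjusted p = 0.065). This last change passed by DESeq2 (adjusted p = 0.014) and by edgeR with a term for sex, assigned from Y-linked transcripts (adjusted p = 0.048). The 2 Apc states were not shown to differ on day 2 (interaction 0.90 ± 0.39, adjusted p = 0.2). ApccKO against Control gave 0.73 ± 0.27 on day 1 (adjusted p = 0.032), a call lost without Control replicate 1 or 3 or ApccKO replicate 1, and 0.39 ± 0.29 on day 2 (adjusted p = 0.26). In the summed TPM of Cox6b1 and Cox6b2, the share of Cox6b2 was 9.90 ± 0.808% in the double knockout, 1.5 ± 0.211% in ApccKO, 3.04 ± 1.34% in NlecKO and 0.699 ± 0.0768% in Control crypts on day 2 (SD, n = 3 each). The more abundant Cox6b1 was higher in double knockout than in ApccKO crypts by 0.28 (adjusted p = 0.019). None of the 31-base words of Cox6b2 transcripts occur in another gene.

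**Figure D4:**
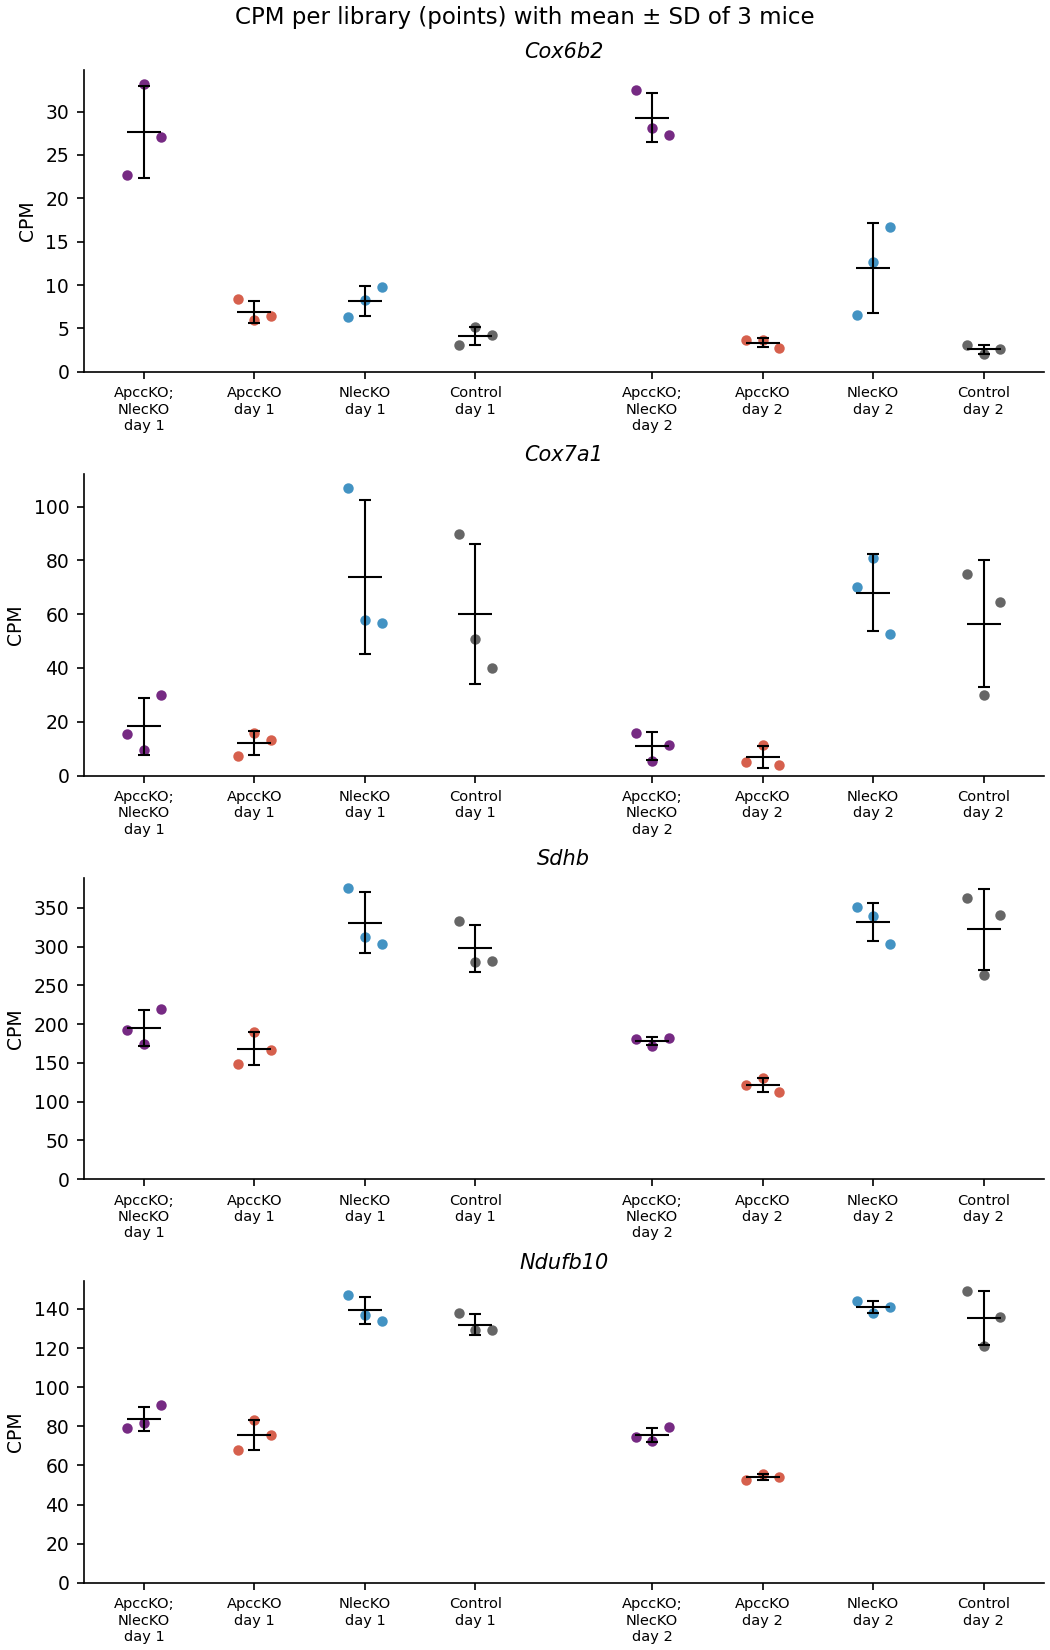
CPM of Cox6b2, Cox7a1, Sdhb and Ndufb10 in each of the 24 libraries (points) with mean and SD of 3 mice per group. Cox6b2 lies at 22.7 to 33.2 CPM in the 6 double knockout libraries and at 16.7 CPM or less in the other 18, and the other 3 genes are lower in the Apc-lost than in the Apc-intact groups.

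With Apc intact, loss of Nle1 called few members. On day 1 the edgeR test called 0 of 104, against 2.48% of all genes in either direction. At an unadjusted p under 0.05 there were 1 higher and 2 lower, and DESeq2 called 1. On day 2, 2 nuclear members were higher, against 7.33% of all genes, and 1 was lower, against 8.26%. The higher ones were Cox6b2 and the complex I assembly factor Ndufaf4, which had 49.4, 60.2 and 64.6 CPM in NlecKO crypts, against 43.6, 42.7 and 44.3 CPM in Control crypts, without overlap (0.42 ± 0.10, adjusted p = 0.0064). The lower one was Atp5sl, with 49.6, 47.4 and 39.8 CPM in NlecKO crypts, against 60.4, 62.8 and 60.1 CPM in Control crypts, also without overlap (-0.42 ± 0.10, adjusted p = 0.0053). The count was 5 without NlecKO replicate 1 or Control replicate 1. None of the 74 core subunit genes passed the edgeR test. Their log2 changes ran from -0.20 to 0.33 with a median of 0.04, and at an unadjusted p under 0.05 there were 7 higher and 2 lower.

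Cell type markers stand beside these values. The 15 enterocyte markers, of which none passed, summed to 30863 to 41848 CPM in NlecKO crypts on day 2, against 10439 to 36390 CPM in Control crypts, and overlapped. Among the other markers on day 2 the stem cell marker Olfm4 was lower (-1.0 ± 0.24, adjusted p = 0.0086), while the endothelial marker Pecam1 (1.08 ± 0.27, adjusted p = 0.0094) and the muscle actin Acta1 (1.0 ± 0.29, adjusted p = 0.024) were higher. The endothelial marker Cdh5 (0.0619, 0.249 and 0.203 CPM in NlecKO, against 0, 0.297 and 0.321 CPM in Control) overlapped. So did the other muscle markers, such as Tagln (3.4, 3.49 and 2.23 CPM, against 2.85, 3.67 and 2.95 CPM). On day 1 the collagen gene Col3a1 was higher (2.12 ± 0.54, adjusted p = 0.044). The stromal and endothelial markers together summed to 56.8, 57.9 and 42.3 CPM in NlecKO crypts that day. In Control crypts they summed to 22.1, 25.6 and 25.9 CPM, without overlap. Col1a1, Col1a2, Dcn, Vim and Cdh5 also lay higher in every NlecKO library, while Pecam1 and Lum overlapped. Their part in the results of NlecKO against Control was not tested.

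The 13 mitochondrially encoded genes were above 0 on both days in NlecKO against Control, with medians of 0.09 and 0.20, and none passed the edgeR test (unadjusted, 1 had a p under 0.05 on day 2, and DESeq2 called 0). Genes of 1 mitochondrial genome share their transcripts and library, so their common direction is a single observation. Their sum on day 2 was 93761, 103986 and 93239 CPM in NlecKO crypts, against 92133, 75770 and 89142 CPM in Control crypts. The lowest NlecKO library was just above the highest Control library. As an unscaled share of a library's estimated counts, these genes averaged 8.84% in NlecKO and 8.26% in Control crypts, and the groups overlapped. The ratio of mitochondrially encoded to nuclear counts, which does not depend on how libraries are scaled, had a mean log2 of 2.13 ± 0.10 in NlecKO and 1.97 ± 0.02 in Control crypts on day 2 (SD, n = 3 each), without overlap, and 1.87 ± 0.22 in NlecKO and 1.84 ± 0.16 in Control crypts on day 1, with overlap. For ApccKO against Control the ratio differed by 0.12 on day 1 and 0.08 on day 2, less than the pooled SD of both groups (0.14 and 0.18), and overlapped. The Control SD alone was 0.02 on day 2.

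The effect of Nle1 loss differed between Apc states for 5 nuclear members on day 2, against 3.29% of all genes with a higher interaction, and for 0 mitochondrially encoded members. At an unadjusted p under 0.05 there were 33 members, and DESeq2 called 9. Ndufs7, an iron-sulfur subunit of complex I, had the lowest p. It had 140, 139 and 150 CPM in double knockout crypts, against 117, 116 and 117 CPM in ApccKO crypts, a rise. It had 192, 164 and 179 CPM in NlecKO crypts, against 200, 210 and 190 CPM in Control crypts, where the groups overlapped. The interaction was 0.46 ± 0.10 (adjusted p = 0.01). The others were Atp5g1 (0.38 ± 0.09, adjusted p = 0.018), Ndufa10 (0.36 ± 0.09, adjusted p = 0.03), Ndufb10 (0.42 ± 0.12, adjusted p = 0.038) and Ndufa11 (0.42 ± 0.12, adjusted p = 0.042). The count depended on the samples and settings, from 0 to 15. On day 1 the edgeR test called 0 members, against 0.0121% of all genes (4 at an unadjusted p under 0.05).

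Between the days, ApccKO crypts had 26 nuclear members lower on day 2 than on day 1, against 5.49% of all genes lower, and 0 mitochondrially encoded ones (0 also at an unadjusted p under 0.05). A batch by order of the library code numbers and day cannot be told apart here. The median was -0.21 over the nuclear and -0.14 over the mitochondrially encoded members. The genes called were 11 core genes of complex I, 3 of complex II, 4 of complex III, 6 of ATP synthase, none of the 11 of complex IV, and Ndufaf4 and Cox6b2. Those with the lowest p were Atp5g1 (-0.39 ± 0.06, adjusted p = 0.00067), Ndufb10 (-0.48 ± 0.08, adjusted p = 0.00086), Ndufab1 (-0.34, adjusted p = 0.0011), Ndufv2 (-0.40, adjusted p = 0.0025) and Ndufs7 (-0.34, adjusted p = 0.0037). Atp5g1, for instance, had 171, 178 and 156 CPM on day 2, against 210, 231 and 221 CPM on day 1, without overlap. No call was left without the 2 day 1 ApccKO libraries that stand apart and their double knockout counterpart, and the count was 10 without ApccKO day 1 replicate 2, 15 without ApccKO day 2 replicate 1 and 13 without ApccKO day 2 replicate 3. In the double knockout 1 member was lower on day 2, Ndufc2 of complex I (-0.27 ± 0.08, adjusted p = 0.043), against 3.04% of all genes. NlecKO and Control crypts had 0 members called between days, against 0.0362% and 0.163% of all genes (3 and 2 members at an unadjusted p under 0.05).

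The mitochondrial ribosomal RNAs, which are transcribed from the same genome but are no members, were higher after Nle1 loss on day 2 in both Apc states. Together mt-Rnr1 and mt-Rnr2 had 2309, 1626 and 2167 CPM in double knockout crypts on day 2, against 581, 662 and 463 CPM in ApccKO crypts, and 1101, 1196 and 1264 CPM in NlecKO crypts, against 696, 357 and 682 CPM in Control crypts. Every double knockout library was above every ApccKO library, and every NlecKO library above every Control library. The log2 change of mt-Rnr2 was 2.03 ± 0.32 for the double knockout against ApccKO (adjusted p = 0.0001) and 1.03 ± 0.31 for NlecKO against Control (adjusted p = 0.032), and that of mt-Rnr1 was 1.65 ± 0.32 (adjusted p = 0.00057) and 1.05 ± 0.31 (adjusted p = 0.029). On day 1 the sum was 878, 556 and 1451 CPM in double knockout crypts, against 412, 430 and 546 CPM in ApccKO crypts, without overlap, and both RNAs passed (mt-Rnr1 1.11, adjusted p = 0.031; mt-Rnr2 1.0, adjusted p = 0.048). For NlecKO on day 1 it was 1269, 756 and 972 CPM, against 643, 849 and 481 CPM in Control crypts, with overlap, and neither passed (mt-Rnr1 0.58, adjusted p = 0.35; mt-Rnr2 0.62, adjusted p = 0.31). Neither passed in ApccKO against Control on either day. Mitochondrial transfer RNAs took 0.0134 to 0.0151% of counts in double knockout libraries on day 2, against 0.0061 to 0.0091% in ApccKO libraries, and 0.0083 to 0.0105% in NlecKO libraries, against 0.005 to 0.0076% in Control libraries. Neither pair overlapped, and this was not tested further. The libraries were made from polyadenylated RNA, and the part of that selection in these values was not tested.

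**Figure D5:**
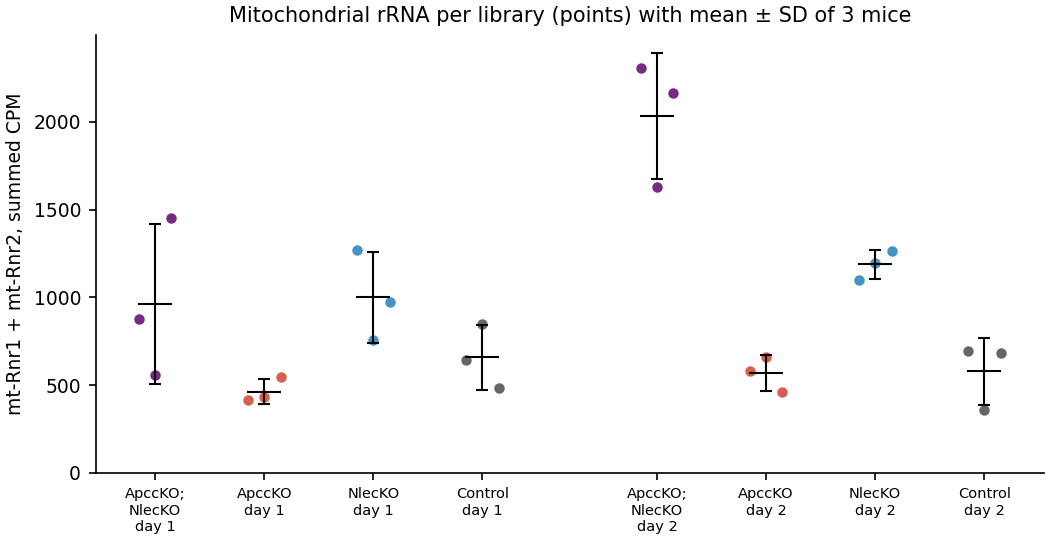
Summed CPM of the mitochondrial ribosomal RNAs mt-Rnr1 and mt-Rnr2 in each library (points) with mean and SD of 3 mice. On day 2 the double knockout libraries lie at 1626 CPM or more and the NlecKO libraries at 1101 to 1264 CPM, above all ApccKO and Control libraries of that day.

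Genes that feed or service the chain were followed as 6 lists, described by counts and medians beside the share of all genes. After Apc loss on day 2, 29.2% of all genes were higher and 29.4% lower, with a median of 0.02. On that day 17 of 18 genes of the tricarboxylic acid cycle and pyruvate dehydrogenase were lower and 0 higher (median log2 change -0.67), among them Suclg1 of succinyl-CoA ligase (-1.0 ± 0.09, adjusted p = 1.2e-08) and Idh3b (-0.68). Of 18 mobile carrier and exchange genes 14 were lower and 2 higher (-0.58), including Coq9 of ubiquinone synthesis (-1.01 ± 0.08), Etfb (-1.25) and Coq4 (-1.05). Of 22 assembly factors outside the symbols above, 14 were lower and 2 higher (-0.28), such as Ecsit (-0.71) and Sco1 (-0.63). Glycolysis genes were split, with 7 of 16 lower and 2 higher (-0.41), where Pfkp (-1.22) and Pgam1 (-0.72) fell and hexokinase gene Hk2 rose by 2.07 ± 0.23 (adjusted p = 5.6e-07). Genes for expression and upkeep of mitochondrial DNA were 8 higher (33.3%) and 7 lower (29.2%) of 24 (0.05), near the shares of all genes, with the polymerase gene Polg at 0.56, its accessory subunit gene Polg2 at -1.06 and Rexo2 at 0.79. Of 13 regulators of mitochondrial gene expression, 5 were higher (38.5%) and 7 lower (53.8%), with a median of -0.37. Ppara fell by 4.16 on the log2 scale (SE 0.29, adjusted p = 1.7e-09), Esrra changed by -1.21 and Ppargc1b by -1.02.

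In the double knockout against ApccKO on day 2, when 19.5% of all genes were higher and 15.4% lower (median 0.06), 10 of 18 tricarboxylic acid cycle genes were higher and 1 was lower (median 0.23), with Cs at 0.46, while Idh2 was at -1.45 ± 0.14 (adjusted p = 3.2e-07). Glycolysis genes were higher for 10 of 16 and lower for 0 (0.33), including Ldhb (3.03), Hk1 (1.46) and Gapdh (0.69). Assembly factors were higher for 12 of 22 and lower for 0 (0.25), including Surf1 (0.45) and Tmem70 (0.46). Carriers were higher for 8 and lower for 2 of 18 (Coq9 0.60, Etfb 0.44, Coq2 -0.38). Of the regulators 4 were higher and 1 lower (Esrrg 1.41, Ppard 0.90, Esrra 0.81). Of the 24 mitochondrial DNA genes 4 were higher (16.7%) and 2 lower (8.33%), no more than among all genes. Lrpprc, a stabiliser of mitochondrial messenger RNAs, was higher by 0.80 ± 0.10 (adjusted p = 5.5e-06) while none of the 13 mitochondrial messenger RNAs passed. With Apc intact, Nle1 loss called 0 to 3 genes higher and 0 to 2 lower in each of the 6 lists on day 2.

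Sco2, a copper chaperone of complex IV, had 0 estimated counts in all 3 ApccKO libraries on day 2. It had 22.7, 6.28 and 19.5 CPM in the Control libraries and 12.0, 13.2 and 14.5 CPM in the double knockout libraries that day. Taking 3 counts per library as the floor, ApccKO was at least 119-fold lower than Control, and the double knockout at least 97.8-fold higher than ApccKO. On day 1 ApccKO had 2.92, 5.93 and 7.17 CPM, against 33.6, 34.1 and 16.5 CPM in Control crypts, without overlap. Sco2 overlaps Tymp and Ncaph2 in the GENCODE annotation, and the part of that overlap in the estimates was not tested.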

How the data were processed

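The authors deposited estimated counts per gene, TPM and a normalised signal for 24 libraries. Per the submitters' processing notes, the tools and build named were kallisto 0.43, DESeq, DESeq2 and mm9; the annotation release is not given in the sources used here. The deposited normalised signal equalled the rounded estimated count divided by 1 factor per library (largest relative spread 7.8e-16) and was used for that check alone. The deposited TPM values served to compare levels between genes.

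Estimated counts were rounded and fitted over all 37620 rows with edgeR 4.0.16 in R 4.3.3 (TMM scaling, filterByExpr with a minimum count of 10, 1 mean for each of 8 groups, robust quasi-likelihood test). This left 16552 genes, over which p-values were adjusted by Benjamini-Hochberg. All 104 members were tested. Folds are log2 with SE, CPM uses TMM-scaled totals, and n is 3 mice. The fit was tested on simulated data. Named were the mitochondrially encoded genes, assembly factors, tissue-restricted isoforms and subunit c genes, and from up to 3 called members per complex and direction with the lowest p (up to 5 in interactions and day comparisons); range ends, members not called and Sco2 were named after their values were seen. The members and lists were chosen with earlier results of these data known. DESeq2 1.42.0 was an alternative. Sex, a term in another alternative, is not in the sample labels. It was assigned from the summed CPM of the Y-linked genes Ddx3y, Eif2s3y, Kdm5d and Uty (9 males and 15 females). On day 2, NlecKO replicates 1 and 2 and Control replicate 1 were assigned male. Replicate numbers did not pair the samples. Each mouse is 1 library, so p-values measure the spread between mice of a group. Estimated counts depend on how reads shared between genes were divided. Promoter sequences are from RefSeq (GRCm38.p6), and transcript words and overlaps from GENCODE M21.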

Additional observations from a re-analysis of the deposited data

Results flagged for a closer look

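The effect of Nle1 loss on day 2 differed between Apc-lost and Apc-intact crypts for 5 nuclear members, by the interaction term of the edgeR fit: Ndufs7 (0.46), Atp5g1 (0.38), Ndufa10 (0.36), Ndufb10 (0.42) and Ndufa11 (0.42, all log2). Of the alternatives tried, Ndufs7 lost its call in 1 (adjusted p = 0.059) and Atp5g1 in 5, while Ndufa10, Ndufb10 and Ndufa11 lost theirs in 11, 15 and 16, with adjusted p of 0.051 to 0.17.

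The mitochondrial ribosomal RNAs, which lie outside the members, averaged 2034 CPM in double knockout and 1187 CPM in NlecKO crypts on day 2, with every such library above every Control library of that day.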

How the results depend on the processing

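Of 6699 alternative values for single members 6490 kept their side of the threshold, 181 lost a call and 28 gained one. The log2 change took the other sign in 360, in 0 of which it passed the test in either fit. The ratio of mitochondrially encoded to nuclear counts, double knockout against ApccKO on day 1, was -0.239 without the 3 libraries that stand apart (main -0.104). Without those libraries the calls also fell to 0 for nuclear members of double knockout against ApccKO on day 1, for mitochondrially encoded members of ApccKO against Control on day 1, and for both day comparisons in Apc-lost crypts. Fitting only the groups compared gave 1 nuclear call for NlecKO on day 2, 1 for the double knockout on day 1, 0 for the interaction on day 2 and 0 for the double knockout between days. A term for sex gave 1 nuclear call for NlecKO on day 1, 2 mitochondrial calls for the double knockout on day 2, 15 for the interaction and 2 for the double knockout between days. DESeq2 gave 1 nuclear call for NlecKO on day 1, 1 mitochondrial call for the double knockout on day 2 and 9 for the interaction. With DESeq2 size factors the interaction had 3 and the double knockout between days 0. With no filter these were 1 and 0, and ApccKO on day 1 had 3 mitochondrial calls. A filter of 2 CPM gave 6 nuclear calls for NlecKO on day 2 and 2 for the interaction. Same-numbered samples had a median correlation of 0.03 (84 pairs) and others 0.01 (168 pairs). A replicate block gave 2 mitochondrial calls for the double knockout on day 2 and 0 for the double knockout between days, and Ndufb10 lost its interaction call (adjusted p = 0.051). The causes of these shifts were not tested.

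Leaving out 1 mouse at a time, the ratio difference ran from -0.080 to 0.136 and 0.108 to 0.213 (NlecKO, days 1 and 2, main 0.03 and 0.16), -0.165 to -0.038 and -0.260 to -0.001 (double knockout), and 0.051 to 0.206 and -0.007 to 0.223 (ApccKO, main 0.12 and 0.08). It thus changed sign for NlecKO on day 1 and ApccKO on day 2. Nuclear calls ran from 0 to 1 and 2 to 5, 1 to 6 and 29 to 54, and 72 to 81 and 79 to 83. Mitochondrial calls were 0 for NlecKO on both days and for the double knockout on day 1, and ran from 0 to 1 for the double knockout on day 2 and from 0 to 10 and 11 to 13 for ApccKO. The interaction on day 2 ran from 1 to 14 (14 without Control replicate 2), the day comparison from 10 to 28 in ApccKO and 0 to 1 in the double knockout.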
